A study of Mus musculus with 23 samples.

Results

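Loss of RBPJ in PLET1+ thymic epithelial cells (TECs) of the E14.5 fetal thymus was examined by RNA-seq in 3 Rbpj conditional knockout (cKO) libraries and 3 control libraries, chosen by their labels, which are 6 of the 23 libraries of the study. Each library was made from 100 sorted TECs that carry PLET1, a surface protein of fetal thymic epithelial progenitors. In the cKO, the labelled genotype is Foxn1Cre RbpjFL/FL: both floxed alleles of *Rbpj* are open to a Cre recombinase driven from *Foxn1*, a gene of the thymic epithelium, so that deletion begins only once *Foxn1* is on. Controls are labelled as wild type, and the methods describe them as littermates from a mating of Foxn1Cre; RbpjFL/+ with RbpjFL/FL mice, which gives every embryo at least 1 floxed allele, so they may also carry Cre. All 6 libraries are labelled C57BL/6, of embryonic day E14.5. PLET1-negative E14.5 TECs and E12.5 PLET1+ TECs of the same genotypes, with 3 libraries a group, and 5 libraries of E14.5 PLET1+ TECs that express the Notch intracellular domain (NICD), are used below for comparison.

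RBPJ is the DNA-binding protein through which all Notch receptors act. A Notch ligand on a neighbouring cell triggers cleavage of the receptor, its intracellular domain enters the nucleus and joins RBPJ and a Mastermind-like (MAML) protein, and target genes such as those of the Hes and Hey families are switched on; without the Notch domain, RBPJ recruits co-repressors to the same genes. In the fetal thymus, TEC progenitors give rise to cortical TECs (cTECs), which support early thymocytes, and medullary TECs (mTECs), which present the body's own antigens to maturing thymocytes.

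The 3 control libraries held 28284253, 48312976 and 37609947 counts on genes and the 3 cKO libraries 43473762, 34875277 and 36986754, in the order of replicates 1, 2 and 3, which is kept below. Replicates 1 stood apart in both groups: they had 16546 and 16229 genes with a count against 19014 to 20350 in the other 4 libraries, and mitochondrial genes took 9.54% and 9.15% of their counts against 4.21% to 5.36%. The 10 most abundant genes took 17.2% of the counts of cKO replicate 1 and 7.68% to 13% in the other 5 libraries. By *Xist* and the Y-linked genes, 1 control library (replicate 2) and 1 cKO library (replicate 3) came from male embryos and the other 4 from female ones. TEC markers were abundant in all 6: the summed level of 7 defining genes, *Foxn1* and the keratin genes *Krt8* and *Krt18* among them, was 6397 to 6794 CPM (counts per 1000000 counts of the library, scaled by edgeR's TMM method) in controls and 5049 to 7428 CPM in cKO. *Plet1* itself was at 17.9, 24 and 23.1 CPM in control and 10.2, 28.3 and 28.4 CPM in cKO libraries, so the genotypes overlapped.

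The deleted gene stood lower in every cKO library. *Rbpj* (ENSMUSG00000039191.12, chr5:53466152-53657362 of GRCm38, plus strand) was at 20.4, 20.2 and 18.4 CPM in control and 0.061, 10.4 and 6.95 CPM in cKO libraries, and no cKO library reached the lowest control. The log2 fold change was −1.82 (SE 1.04, unadjusted p = 0.0994) by edgeR's quasi-likelihood test and did not pass adjustment over all genes (adjusted p = 1). Without replicate 1 of both groups it was −1.09 (unadjusted p = 0.254), and the near absence of reads was seen in cKO replicate 1 alone. Gene counts also include reads from exons outside the deleted part, and therefore do not measure the deletion itself. With a reporter, the study found recombination by this Cre in nearly all E14.5 TECs. By genotyping, it reported complete *Rbpj* deletion in TECs of postnatal mice.

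Over all genes, none of 19140 tested passed an adjusted p of 0.05 with edgeR (0%) and the smallest adjusted p was 1. An unadjusted p under 0.05 was given to 395 genes (2.06%), 243 lower in the cKO (1.27%) and 152 higher (0.794%). Same-numbered libraries deviated together, but so did replicates 2 and 3 of opposite genotypes, so the numbers are not shown to pair libraries. With the replicate number as a block there were 0 calls and 197 genes under an unadjusted p of 0.05 (1.03%). limma-voom also called 0 genes, with 496 under an unadjusted p of 0.05. DESeq2 called 131 (0.684%), of which 68 had over 90% of their counts in 1 of the 6 libraries and 22 did not overlap between the groups. The 2 groups of libraries did not overlap for 1461 genes (7.63%): the cKO libraries lay wholly below the controls for 874 genes (4.57%) and wholly above for 587 (3.07%). An exact permutation test of 3 against 3 libraries cannot give a two-sided p under 0.1. All values below are therefore levels and differences without a called change, and the gene lists are described against these background shares and a median log2 fold change of −0.02 over all genes tested.

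Among the 4 Notch receptors, *Notch3* and *Notch1* stood below the controls in every cKO library, as did 4.57% of all genes. *Notch3* (ENSMUSG00000038146.7, chr17:32120820-32166880 of GRCm38, minus strand) was at 8.84, 9.01 and 8.26 CPM in control and 0, 0.418 and 0.498 CPM in cKO libraries: all controls lay close together and all cKO libraries near 0. Its log2 fold change of −4.88 (SE 1.3, unadjusted p = 0.0015) was −5.47 with the replicate block (unadjusted p = 0.00188) and −4.21 without replicate 1 of both groups (unadjusted p = 0.0052), and DESeq2 called it (adjusted p = 0.000373). *Notch1* was at 18.4, 16.7 and 18.2 CPM in control and 0, 6.61 and 7.16 CPM in cKO libraries, with a log2 fold change of −2.0 (SE 1.15, unadjusted p = 0.1). Here too the groups did not overlap, but cKO replicate 1 held no read and the other cKO libraries a part of the control level. *Notch2*, at 393, 111 and 108 CPM in control and 1390.3, 101 and 85.7 CPM in cKO libraries, overlapped between the groups and was highest in replicate 1 of each. *Notch4* reached at most 0.902 CPM in any of the 6 libraries. Per kilobase of exon, *Notch2* was the most abundant receptor in control TECs, at 18.9 ± 15.2 CPM per kb (SD, n = 3), against 1.25 ± 0.0659 for *Notch1* and 1.08 ± 0.0487 for *Notch3*.

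**Figure D1:**
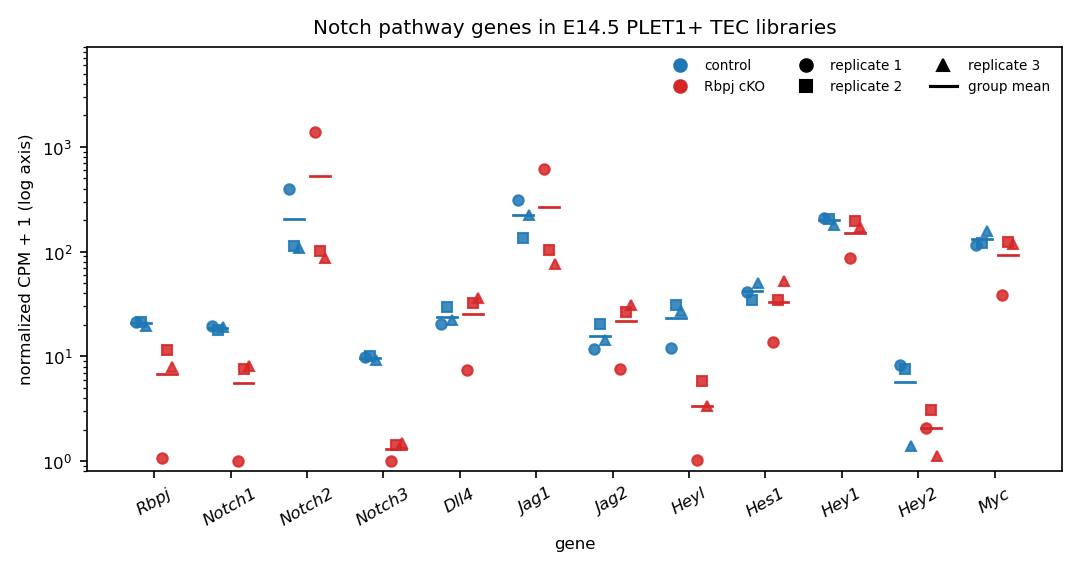
Normalized CPM + 1 (log axis) of 12 Notch pathway genes in each E14.5 PLET1+ library; colour gives the genotype, marker shape the replicate and the bar the mean of 3 libraries. *Rbpj*, *Notch1*, *Notch3* and *Heyl* have all cKO libraries below all controls, whereas *Notch2*, the ligands, *Hes1*, *Hey1*, *Hey2* and *Myc* overlap.

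The Notch ligands overlapped between the genotypes. *Dll4*, the ligand that thymocyte precursors need, was at 19.2, 28.7 and 21.2 CPM in control and 6.41, 31.1 and 35.1 CPM in cKO libraries, with a log2 fold change of −0.0034 (SE 0.79). *Jag1* was at 313, 136 and 221 CPM in control and 612, 103 and 74.6 CPM in cKO libraries, and the highest and the lowest libraries were both cKO. *Jag2* was at 10.8, 19.4 and 13.4 CPM in control and 6.53, 25.6 and 30.2 CPM in cKO libraries. *Dll1* did not exceed 2.63 CPM and *Dll3* did not exceed 0.472 CPM. Their log2 fold changes ran from −0.091 to 0.45, with a median of 0.039 over the 5 ligands (−0.52 without cKO replicate 2 and 0.57 without cKO replicate 1), none with an unadjusted p under 0.05.

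Of 11 Notch target genes, 10 passed the low-count filter and *Hes5* had no count in any of the 6 libraries. 8 of the 10 had a log2 fold change under 0, against 51.4% of all genes, with a median of −0.44. Without cKO replicate 1, 5 of the 10 were below 0 with a median of −0.049, and without replicate 1 of both groups 6 with −0.11, whereas without cKO replicate 2 the median was −1.15. *Heyl* (ENSMUSG00000032744.4, chr4:123233556-123249875 of GRCm38, plus strand), which encodes a Hey family repressor, was the one target of the 10 with non-overlapping libraries, against 4.57% of all genes wholly lower. It was at 11, 29.8 and 25.9 CPM in control and 0.0305, 4.79 and 2.32 CPM in cKO libraries. Its log2 fold change was −3.2 (SE 1.13, unadjusted p = 0.0114), or −4.2 with the replicate block (unadjusted p = 0.00168) and −2.95 without replicate 1 of both groups (unadjusted p = 0.015). More abundant target genes overlapped between the genotypes. *Hes1*, a repressor of differentiation genes, was at 39.9, 33.3 and 49.6 CPM in control and 12.8, 33.2 and 51.1 CPM in cKO libraries, so cKO replicate 1 was far below the controls, replicate 2 level with the lowest of them and replicate 3 above them all. *Hey1* was at 210.4, 206 and 178 CPM in control and 86.3, 193 and 169.5 CPM in cKO libraries, with a log2 fold change of −0.41 that became −0.057 without replicate 1 of both groups. *Hey2* was at 7.35, 6.52 and 0.38 CPM in control and 1.07, 2.09 and 0.119 CPM in cKO libraries, lower in the cKO of every same-numbered pair but overlapping between the groups. *Myc*, a growth regulator, and *Cdkn1a*, which encodes a cell cycle inhibitor, had log2 fold changes of −0.51 (SE 0.44) and −0.48 (SE 0.89), and each was lowest in cKO replicate 1. For *Ccnd1*, *Nrarp*, *Dtx1* and *Hes7*, the first encoding a cyclin, the second a feedback inhibitor of Notch, no library exceeded 6.72 CPM.

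To show the DNA that lies before these genes, the 250 bases upstream of the annotated start of *Notch3* (chr17:32166891-32167140), *Hey2* (chr10:30842784-30843033) and *Krt5* (chr15:101712906-101713155) are given from RefSeq on GRCm38.p6, all from the minus strand and written 5′ to 3′. *Notch3* and *Krt5* are the receptor and the mTEC gene with the smallest p, and *Hey2* is a canonical target gene whose promoter was in the table. Capitals mark TGGGAA or its reverse complement TTCCCA, the core letters that RBPJ is known to bind.
Notch3: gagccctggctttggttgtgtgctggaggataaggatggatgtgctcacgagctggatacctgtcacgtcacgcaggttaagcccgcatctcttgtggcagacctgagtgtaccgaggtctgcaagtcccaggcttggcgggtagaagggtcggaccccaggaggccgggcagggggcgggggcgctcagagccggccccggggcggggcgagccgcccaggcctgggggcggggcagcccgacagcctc
Hey2: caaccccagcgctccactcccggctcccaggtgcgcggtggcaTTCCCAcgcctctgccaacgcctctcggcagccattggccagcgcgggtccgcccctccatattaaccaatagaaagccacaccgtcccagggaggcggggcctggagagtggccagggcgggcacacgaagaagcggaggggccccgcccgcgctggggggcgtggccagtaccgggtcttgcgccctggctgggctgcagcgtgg
Krt5: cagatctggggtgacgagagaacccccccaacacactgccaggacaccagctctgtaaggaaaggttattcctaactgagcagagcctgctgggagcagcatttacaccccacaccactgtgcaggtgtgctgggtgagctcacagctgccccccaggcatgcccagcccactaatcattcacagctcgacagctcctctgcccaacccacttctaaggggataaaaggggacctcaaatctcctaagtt
Only *Hey2* of the 3 held a match, which starts 207 bases before the start site. These letters, on either strand, were found in 21.6% of all 32851 promoters of that length, in 4 of 15 Notch receptors, ligands and targets with a promoter in the table, in 1 of 8 of the leading lower genes named below and in 3 of 6 of the leading higher ones.

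The remaining machinery of the pathway had list medians nearer to 0. Of 12 genes of the nuclear complex and its co-repressors, 6 had a log2 fold change under 0 and 6 over 0 (median −0.11, or −0.36 without cKO replicate 2). Beside *Rbpj*, *Maml1*, which encodes a co-activator, was the one member with non-overlapping libraries. These are 2 of 12, against 4.57% of all genes wholly lower. *Maml1* was at 11.3, 10.01 and 10.2 CPM in control and 0.244, 9.51 and 6.5 CPM in cKO libraries. Its cKO replicate 1 was near 0 and replicate 2 only just below the lowest control. *Maml2* and the co-repressor gene *Kdm5a*, the most abundant members, had log2 fold changes of 0.071 (SE 0.60) and −0.31 (SE 0.33). Among 14 tested genes that cleave or glycosylate the receptors, 10 were below 0 (median −0.16, or 0.035 without control replicate 2 and 0.018 without cKO replicate 3) and no member was without overlap. The protease gene *Adam10* and the glycosyltransferase gene *Poglut1* led this list in level, with log2 fold changes of 0.70 (SE 0.69) and −0.35 (SE 0.51). Among 10 genes of ligand and receptor trafficking and turnover, with a median of 0.20 (−0.078 without cKO replicate 1 and −0.33 without cKO replicate 2), *Dtx4* lay wholly lower in the cKO, at 5.86, 6.67 and 3.89 CPM in control and 0.183, 2.53 and 3.32 CPM in cKO libraries, and *Dtx3* wholly higher, at 8.11, 10.3 and 11.4 CPM in control and 15.8, 22 and 11.6 CPM in cKO libraries. Both belong to the Deltex family of ubiquitin ligases. Of all genes, 4.57% lay wholly lower and 3.07% wholly higher. *Mib1*, needed for ligand activity, and *Fbxw7*, which marks the Notch domain for degradation, overlapped, with log2 fold changes of 0.23 (SE 0.33) and 0.53 (SE 0.54).

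Genes of the medullary lineage mostly had a log2 fold change under 0. Of 13 tested members, 12 were under 0, against 51.4% of all genes, with a median of −1.49. 1 was lower with an unadjusted p under 0.05, against 1.27% of all genes, and 4 lay wholly below the controls, against 4.57%. Between same-numbered libraries the median log2 difference was smaller, at −0.49, −0.78 and −0.93. The summed level of the list overlapped between the genotypes, at 1439.5 to 2533.9 CPM in control and 1140.5 to 1512.2 CPM in cKO libraries. The median moved to −0.72 without batch terms, and was −0.67 without cKO replicate 3 and −0.75 without control replicate 3. In a fit of the 6 libraries alone it was −0.50, over the 10 members tested there, of which 7 were below 0. In bulk libraries, fewer cells of a type and less RNA per cell cannot be told apart.

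*Krt5* (ENSMUSG00000061527.6, chr15:101707070-101712891 of GRCm38, minus strand), the basal keratin gene that marks mTECs, was at 291, 493 and 311 CPM in control and 51.6, 109 and 52.6 CPM in cKO libraries, so every control exceeded every cKO library. Its log2 fold change was −2.38 (SE 0.64, unadjusted p = 0.00157), −2.42 with the replicate block (unadjusted p = 0.000131) and −2.33 without replicate 1 of both groups (unadjusted p = 0.00971), and DESeq2 called it (adjusted p = 0.0202). Its partner keratin gene *Krt14* was at 51.2, 83.3 and 45.5 CPM in control and 18.8, 29.2 and 16 CPM in cKO libraries, again without overlap, with a log2 fold change of −1.49 (SE 1.33, unadjusted p = 0.278) and an unadjusted p of 0.0193 with the block. *Cldn4*, a claudin gene of the mTEC lineage, was at 48, 76.9 and 166 CPM in control and 0.519, 38.2 and 37.4 CPM in cKO libraries. *Spib*, which encodes an Ets factor of mTECs, was at 11.3, 17.6 and 8.48 CPM in control and 0.0305, 5.06 and 2.02 CPM in cKO libraries. In both, cKO replicate 1 was near 0 and the other cKO libraries lay below the lowest control.

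Regulators of mature mTECs were rare in both genotypes. *Aire*, which drives the expression of tissue antigens, was at 3.38, 3.51 and 0 CPM in control and 0.0916, 0 and 0 CPM in cKO libraries. *Fezf2*, which acts beside it, was at 0, 1.78 and 0.902 CPM in control and 0, 0 and 0 CPM in cKO libraries. Each was thus seen in 2 of 3 control libraries and in no cKO library above 0.1 CPM. *Trp63*, the basal epithelial regulator, and *Epcam*, a surface protein gene, had small differences, as their log2 fold changes were 0.21 (SE 0.35) and −0.34 (SE 0.21).

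*Tnfrsf11a* encodes RANK, the receptor through which mTEC precursors are driven to mature. It was at 15.1, 8.85 and 6.98 CPM in control and 0.122, 7.49 and 1.38 CPM in cKO libraries, lower in the cKO of each same-numbered pair while cKO replicate 2 exceeded the lowest control, with a log2 fold change of −1.99 (SE 1.05, unadjusted p = 0.0789). The other NF-kB genes were nearer to 0: over 12 members the median was −0.24 and no member was without overlap. This median was −0.045 without control replicate 2, −0.057 without control replicate 3, −0.076 without cKO replicate 1 and −0.69 without cKO replicate 2. *Nfkb1* and *Rela*, subunits of the transcription factor, had log2 fold changes of −0.26 (SE 0.30) and −0.078 (SE 0.75).

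The Skint genes encode immunoglobulin-like proteins. Of these, Skint1 is expressed by TECs and is required for the fetal thymus to select a subset of skin-homing γδ T cells. Of 11 members, 7 passed the filter. Of these, 5 were below 0 (median −2.03), against 51.4% of all genes, and 2 above 0, the highest at 5.09. The 2 with an unadjusted p under 0.05 were both lower, against 1.27% of all genes, and 2 lay wholly below the controls, against 4.57%. Without cKO replicate 1, cKO replicate 2 or control replicate 3, 4 of the 7 were below 0, with medians of −2.49, −1.68 and −1.46. *Skint8* was at 21, 25.4 and 15.5 CPM in control and 11.5, 3.37 and 2.61 CPM in cKO libraries, without overlap, and its log2 fold change was −2.03 (SE 0.82, unadjusted p = 0.0255). *Skint10* was at 27.7, 20.1 and 1.99 CPM in control and 0, 1.99 and 0 CPM in cKO libraries; control replicate 3 and cKO replicate 2 were nearly level, at 1.9942 and 1.9904 CPM, so that its place below among genes without overlap rests on that small difference, and the log2 fold change was −5.8 (SE 1.75, unadjusted p = 0.00438). *Skint1* was at 4.4, 19.8 and 6.12 CPM in control and 0.214, 6.73 and 0 CPM in cKO libraries, lower in the cKO of each pair with overlap between the groups. Members of this family are similar in sequence, so reads may be shared or lost between them.

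Genes of the cortical lineage lay mostly above 0. Of 14 members, 12 had a log2 fold change over 0 and 2 under 0, against 51.4% of all genes under 0. The median was 0.42, and 3 lay wholly above the controls, against 3.07% of all genes. Without cKO replicate 2, cKO replicate 3 or control replicate 3, 5 of 14 were under 0, with medians of 0.29, 0.36 and 0.29. With the replicate block 5 were also under 0 (median 0.40). Between same-numbered libraries the median log2 difference was −0.012, 0.41 and 0.72. Their summed level was 10252 to 12482 CPM in control and 14688 to 16622 CPM in cKO libraries. This sum is weighted to abundant genes such as *Ccl25*, given below, and does not show a rise across the list. *Ly75*, which encodes the endocytic receptor CD205, was at 138, 98.7 and 138 CPM in control and 233, 165 and 233 CPM in cKO libraries, with a log2 fold change of 0.75 (SE 0.35, unadjusted p = 0.0435). The other 2 were *Kitl*, the gene of a growth factor for early thymocytes, at 145, 129 and 150.4 CPM in control and 167, 174 and 235 CPM in cKO libraries, and *Cd83*, at 192, 156 and 183 CPM in control and 228, 208 and 306 CPM in cKO libraries.

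*Psmb11*, which encodes the catalytic subunit of the thymoproteasome, was at 404, 490.4 and 386 CPM in control and 377, 889 and 857 CPM in cKO libraries, with a log2 fold change of 0.71 (SE 0.39, unadjusted p = 0.0846): cKO replicates 2 and 3 exceeded all controls and replicate 1 lay below them. *Prss16*, a serine protease gene of cTECs, and *Ctsl*, the gene of the protease cathepsin L, had log2 fold changes of 0.45 (SE 0.36) and 0.25 (SE 0.30). *Ccl25*, which encodes a chemokine that draws thymocyte precursors, was at 3409, 1117 and 1165 CPM in control and 7788, 2101 and 2435 CPM in cKO libraries, higher in the cKO of each pair, with a log2 fold change of 1.11 (SE 0.54, unadjusted p = 0.0549) and an unadjusted p of 0.0135 with the block. *Foxn1*, the master regulator of TECs, was at 84.7, 206 and 142 CPM in control and 12.6, 142 and 121 CPM in cKO libraries, with a log2 fold change of −0.70 (SE 0.70). That value was −0.15 without cKO replicate 1, −0.20 without control replicate 2 and −1.67 without cKO replicate 2. The list's other negative value was that of *Dll4*, close to 0. *Krt8*, the keratin gene of cTECs and progenitors, was at 2028, 2567 and 2469 CPM in control and 1244, 3066 and 3001 CPM in cKO libraries.

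**Figure D2:**
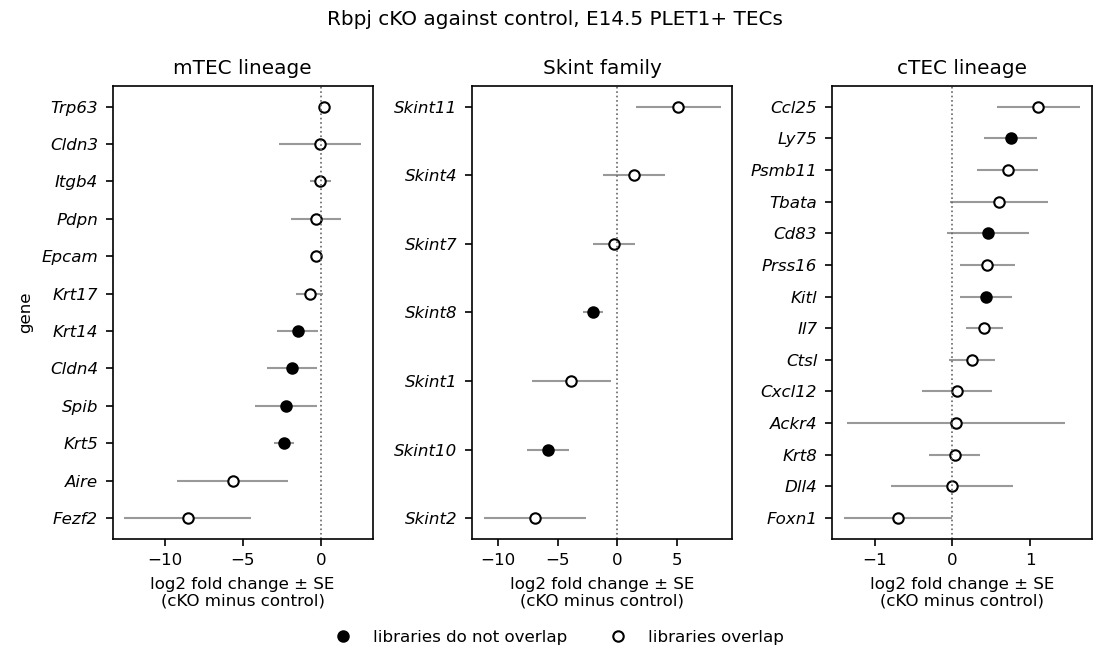
Log2 fold change (cKO minus control, ± SE, from edgeR's fit) of 12, 7 and 14 tested genes of the mTEC, Skint and cTEC lists in E14.5 PLET1+ TECs; filled points are genes whose 3 cKO and 3 control libraries do not overlap. 11 of the 12 mTEC genes lie below 0 and 12 of 14 cTEC genes above it, and the axes of the 3 panels differ in range.

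Genes of early TEC progenitors showed no such direction: of 13 tested, 6 were below 0 and 7 above, the median was 0.00059 and none was without overlap. *Krt18* and *Ccn1*, also called *Cyr61*, a secreted matrix protein gene, were the most abundant, with log2 fold changes of 0.00059 (SE 0.24) and −0.29 (SE 0.73). Among 8 genes of antigen presentation by MHC class II, which marks maturing TECs, 6 were above 0 (median 0.15). Without control replicate 3 only 2 were above 0 (median −0.12), and 3 were without cKO replicate 3 (median −0.015). The class II chain gene *H2-Ab1* and the invariant chain gene *Cd74* had log2 fold changes of 0.14 (SE 0.33) and 0.36 (SE 0.56). Of 18 cell cycle genes, 9 were below 0 and 9 above. *Ccnb1*, a mitotic cyclin gene, and *Top2a*, a topoisomerase gene of dividing cells, had log2 fold changes of 0.27 (SE 0.35) and 0.36 (SE 0.28).

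Of 11 ligands and receptors of the EGFR family, 8 were tested and 7 of these were below 0 (median −1.09), with 3 wholly below the controls, against 4.57% of all genes. The median was −0.46 without cKO replicate 1, −0.64 and −0.61 without control replicate 2 or 3, and −2.11 without cKO replicate 2. *Erbb3*, a receptor gene, was at 4.29, 10.2 and 8.36 CPM in control and 0.305, 3.27 and 0.878 CPM in cKO libraries. *Erbb2*, its partner, was at 18.3, 13 and 13.5 CPM in control and 0.214, 8.85 and 10.6 CPM in cKO libraries. *Egf*, the growth factor gene, was at 8.18, 6.08 and 10.8 CPM in control and 0.0916, 2.38 and 0.142 CPM in cKO libraries. All 3 were nearest to 0 in cKO replicate 1, none had an unadjusted p under 0.05 without the block, and with it *Erbb3* and *Egf* had unadjusted p of 0.034 and 0.0475. *Egfr* and the ligand gene *Hbegf* overlapped, with log2 fold changes of −0.35 (SE 0.46) and −0.88 (SE 1.92).

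Of 13 neuroendocrine and proneural genes, 8 were tested and 6 of these were below 0 (median −1.98). Without control replicate 2, the library in which *Pth* stood high, 4 of 8 were below 0 with a median of −0.64, and without cKO replicate 2 the median was −3.24. The hormone genes *Cck*, at 16.2, 12.9 and 6.15 CPM in control and 0.061, 4.45 and 1.52 CPM in cKO libraries, and *Calca*, at 8.4, 3.52 and 5.34 CPM in control and 0, 1.3 and 2.7 CPM in cKO libraries, lay wholly lower in the cKO, as did 4.57% of all genes. *Hes6*, the most abundant member, was at 599, 510.1 and 482 CPM in control and 324, 905 and 986 CPM in cKO libraries, with 1 cKO library below and the others above all controls.

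The 10 genes with the smallest p among those wholly lower in the cKO, with a mean of at least 5 CPM in the higher group, were *Fbn2*, *Notch3*, *Krt5*, *Dsg3*, *Efhd1*, *Rgs4*, *Gstm1*, *Nup62cl*, *Skint10* and *Ces1a*. They were chosen by these values, which are therefore a description. *Fbn2*, which encodes a fibrillin of elastic fibres, was at 90.4, 43.5 and 50.7 CPM in control and 6.41, 11.4 and 19.2 CPM in cKO libraries, with a log2 fold change of −2.3 (SE 0.57). *Dsg3*, a desmosomal cadherin gene of stratified epithelium, was at 11.2, 7.7 and 15.4 CPM in control and 0, 0 and 0.0474 CPM in cKO libraries, at least 145-fold lower when each cKO library is set to the level of 3 counts. The control libraries thus all held *Dsg3* and the cKO libraries almost none. *Rgs4*, a regulator of G protein signalling, was at 404, 436 and 420.1 CPM in control and 33.7, 105 and 33.5 CPM in cKO libraries; the controls were tight and the cKO libraries at a fraction of their level. *Gstm1*, a glutathione transferase gene, was at 269.8, 339.9 and 267 CPM in control and 21.5, 122 and 74.5 CPM in cKO libraries. *Efhd1*, the gene of a calcium-binding mitochondrial protein, was at 73.2, 143 and 111 CPM in control and 7.33, 29.4 and 25 CPM in cKO libraries. The groups of both were well separated. *Nup62cl*, an X-linked gene, was at 133, 125 and 117 CPM in control and 45, 35.4 and 59.3 CPM in cKO libraries. *Ces1a*, a carboxylesterase gene, was at 0.109, 29.7 and 11 CPM in control and 0, 0 and 0 CPM in cKO libraries: no cKO library held a read, but control replicate 1 was itself at the level of 3 counts. *Notch3*, *Krt5* and *Skint10* are given above. DESeq2 called 8 of the 10, all but *Gstm1* and *Nup62cl*, against 0.684% of all genes. It was run on the same libraries from which the 10 were chosen by small p, so these calls are not separate support.

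Of the 10 genes chosen in the same way among those wholly higher in the cKO, 9 are given: *Edaradd*, *Brap*, *Plau*, *Klhl20*, *Clptm1l*, *Crip1*, *Slc22a7*, *Irak4* and *Nxf2*, and DESeq2 called none of them. Their smallest unadjusted p was 0.0181, against 0.000747 among the lower genes. *Edaradd*, which encodes the adaptor of the ectodysplasin receptor that leads to NF-kB, was at 101, 59.6 and 64.3 CPM in control and 316, 124 and 108 CPM in cKO libraries. *Plau*, the gene of the urokinase plasminogen activator, was at 1.13, 0.272 and 0.95 CPM in control and 4.49, 8.13 and 2.99 CPM in cKO libraries. In each, the cKO libraries lay above all controls, by the widest margin in cKO replicate 1 for *Edaradd* and in replicate 2 for *Plau*. *Irak4*, a kinase gene of Toll-like receptor signalling, was at 10.7, 17.7 and 12.9 CPM in control and 98.4, 19 and 22.3 CPM in cKO libraries, and its log2 fold change of 1.62 became 0.53 without replicate 1 of both groups. *Nxf2*, an X-linked gene of RNA export, was at 0.291, 0.0545 and 0.546 CPM in control and 17.4, 3.71 and 12.3 CPM in cKO libraries. The other 5, among them *Brap*, which encodes a ubiquitin ligase of the Ras pathway, and *Slc22a7*, an organic anion transporter gene, had log2 fold changes between 0.90 (*Clptm1l*) and 1.31 (*Klhl20*).

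These 20 genes were compared next in the PLET1-negative E14.5 libraries, whose levels set neither their direction nor the absence of overlap. Those libraries did enter the filter and the estimate of spread behind the p-values that ranked the genes, since all 23 were fitted together. Of the 10 lower genes, 9 had a log2 fold change under 0 there too, 5 of them with an unadjusted p under 0.05 (median −1.5), against 48.2% of all genes under 0, 1.49% lower with such a p and a median of 0.02. These 5 were *Krt5*, *Efhd1*, *Rgs4*, *Gstm1* and *Skint10*. *Efhd1* was at 43, 53.1 and 51.6 CPM in PLET1-negative control and 5.11, 14.3 and 13.3 CPM in PLET1-negative cKO libraries, with a log2 fold change of −2.19 (SE 0.67). *Rgs4* was at 168, 262 and 375 CPM in PLET1-negative control and 91.6, 65.4 and 81.1 CPM in PLET1-negative cKO libraries, with a log2 fold change of −1.76 (SE 0.80). In both genes the PLET1-negative genotypes did not overlap either, as for 5 of the 10, against 3.2% of all genes. *Krt5* was at 20.2, 138 and 25.4 CPM in PLET1-negative control and 10.2, 17.1 and 23.4 CPM in PLET1-negative cKO libraries, where 1 control and 1 cKO library overlapped. The tenth gene, *Dsg3*, had no read in any of these 6 libraries. No gene was called in the PLET1-negative comparison. The libraries of the 2 fractions may come from the same embryos, as the sex read from the genes above was the same in both fractions for each genotype and number (6 of 6), so they are not shown to be independent animals.

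Of the 10 higher genes, 9 were also above 0 in the PLET1-negative TECs, but none with an unadjusted p under 0.05, as 0.841% of all genes were (median 0.56, with 51.7% of all genes above 0). At E12.5, in PLET1+ TECs from other embryos, 7 of the 10 lower genes were below 0, against 48.3% of all genes, 2 of them with an unadjusted p under 0.05, against 1.57%. Of the 10 higher genes, 5 were above 0, against 46.9%, 1 of them with such a p, against 2.22%. At that age 5 of all genes (0.0261%) were called. The 2 lower genes with such a p were *Krt5*, with a log2 fold change of −1.72 (SE 0.63), and *Rgs4*, with −2.74 (SE 1.03).

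**Figure D3:**
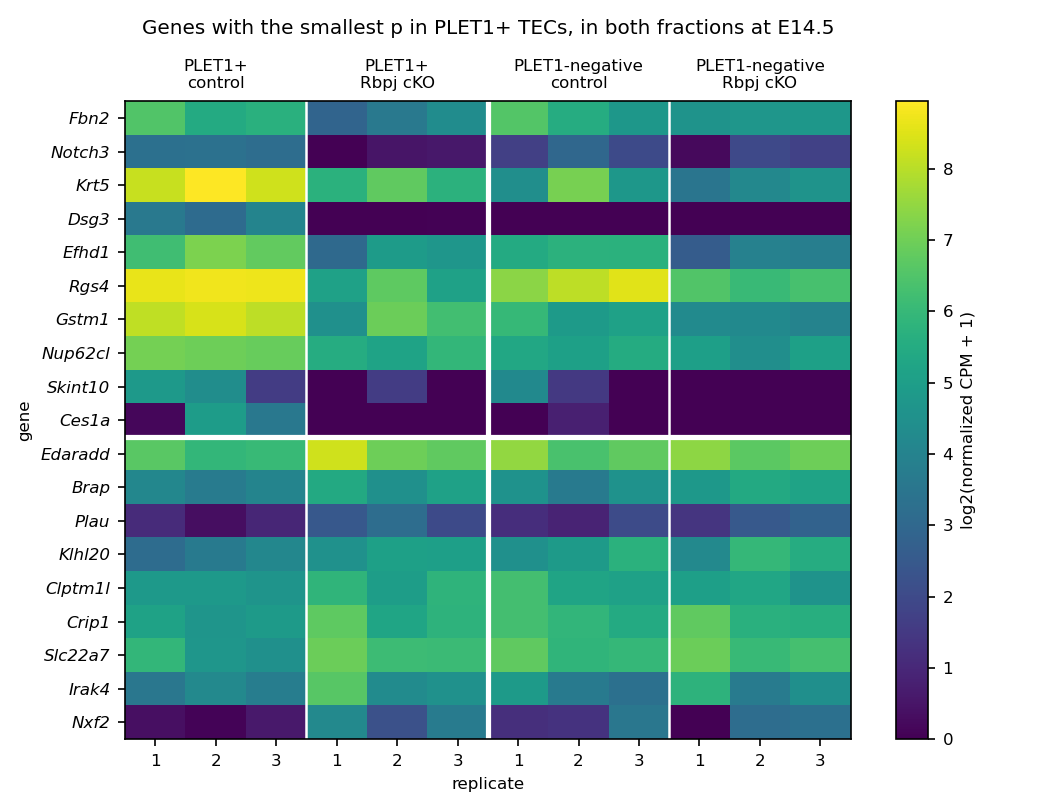
Log2(normalized CPM + 1) of the 10 lower (above the white line) and 9 of the 10 higher leading genes in each E14.5 library of PLET1+ TECs, from whose comparison they were chosen, and of PLET1-negative TECs. *Efhd1* and *Rgs4* are darker, that is lower, in the cKO of both fractions, whereas *Dsg3* is seen almost only in PLET1+ controls.

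Whether the effect of Rbpj loss differed between fractions or ages was tested gene by gene as an interaction. No gene was called for PLET1+ against PLET1-negative TECs (edgeR, 502 genes or 2.62% with an unadjusted p under 0.05) or for E14.5 against E12.5 (603 genes, 3.15%), and limma-voom also called none, while DESeq2 called 116 and 215. *Notch3* had the more negative effect in E14.5 PLET1+ TECs in both tests, by −3.66 on the log2 scale (SE 1.6, unadjusted p = 0.0352) against PLET1-negative TECs and by −5.36 (SE 1.66, unadjusted p = 0.00475) against E12.5. *Notch3* and *Krt5* are among the genes chosen by small p in E14.5 PLET1+ TECs, which enter both tests. These values therefore cannot show whether their effects are particular to those TECs. *Heyl* was below 0 in all 3 comparisons, at −3.2, −1.22 and −2.5. *Hey1* was at −0.41 in E14.5 PLET1+ TECs and 1.1 at E12.5, a difference of −1.51 (SE 0.43, unadjusted p = 0.00232). *Krt5* differed by −0.65 (SE 0.88) and −0.66 (SE 0.87), both within 1 SE of 0.

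**Figure D4:**
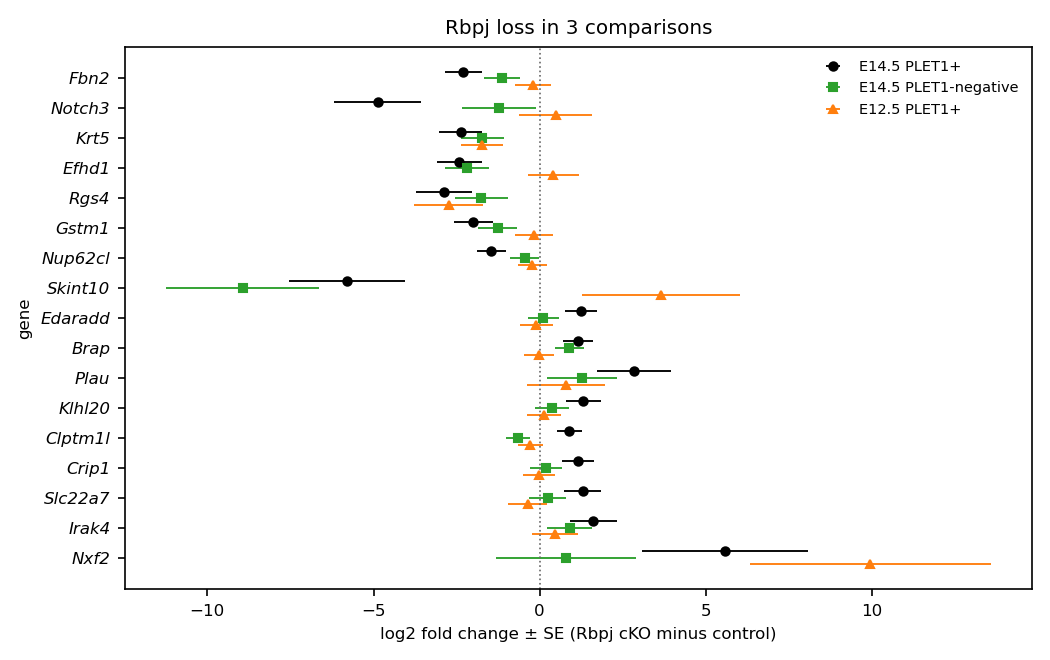
Log2 fold change (Rbpj cKO minus control, ± SE, from edgeR's fit) of 17 leading genes in E14.5 PLET1+, E14.5 PLET1-negative and E12.5 PLET1+ TECs; *Dsg3* and *Ces1a*, with groups at or near 0, are left out. *Krt5* and *Rgs4* lie below 0 in all 3 comparisons, and *Notch3* and *Efhd1* lie below 0 at E14.5 and not at E12.5.

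TECs with NICD were compared with the same 3 PLET1+ controls, so their log2 fold changes are set beside those of the cKO as values only. For *Heyl* they were 2.33 in NICD and −3.2 in the cKO. For *Notch3* they were 1.46 and −4.88, and for *Krt5* 1.74 and −2.38. *Hes1*, at 2.21 in NICD (adjusted p = 0.0127, edgeR) and −0.40 in the cKO, was the one of these past the threshold in NICD. *Rgs4* was below 0 in both, at −0.49 and −2.87. The median of the mTEC lineage list was also below 0 in both, at −0.44 and −1.49, so *Krt5* does not stand for that list. All 5 NICD libraries carry a batch number that no other library has. The study took them from embryos of a single litter and sorted them in Lausanne, whereas the Rbpj cross was sorted in Edinburgh. It states that a possible laboratory effect could not be corrected. NICD, batch, litter and site cannot be told apart.

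Markers of other cell types were low beside those of TECs. The 12 thymocyte genes summed to 36.5 to 59.8 CPM in control and 24.5 to 40.7 CPM in cKO libraries, with *Il2ra* and *Lck* the most abundant and *Cd3e* at most 0.0949 CPM. The 9 mesenchymal genes summed to 2.37 to 24.4 CPM in control and 5.68 to 44.8 CPM in cKO libraries, led by the matrix genes *Dcn* and *Lum*; of the 8 measured, 7 had a log2 fold change over 0 and none an unadjusted p under 0.05. The 7 endothelial genes summed to 0.109 to 2.98 CPM in control and 0.458 to 1.02 CPM in cKO libraries, *Pecam1* and *Tek* foremost, the 7 erythroid genes summed to 0.902 to 1.04 CPM in control and 0.305 to 1.54 CPM in cKO libraries, with *Alas2* and *Hba-a2*, and the 6 myeloid genes summed to 4.11 to 14.9 CPM in control and 3.96 to 10.6 CPM in cKO libraries, with *Cd68* and *Fcer1g*. The 3 glial genes summed to 1.02 to 2.42 CPM in control and 0 to 2.19 CPM in cKO libraries, *Sox10* among them. The 3 parathyroid genes summed to 2.07 to 389 CPM in control and 0.458 to 6.95 CPM in cKO libraries. *Pth*, the parathyroid hormone gene, was high in 1 library, at 0.182, 377 and 0.214 CPM in control and 0.275, 0.147 and 0.19 CPM in cKO libraries. The cKO sum exceeded the *Pth* level, so other genes of this list also held reads there. The part of these cells, of embryo sex and of the low gene number of replicates 1 in the differences above was not tested, beyond the values given without replicate 1.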

How the data were processed

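RNA-seq libraries of 100 sorted TECs each (Smart-seq2, paired reads of 75 bp) were made by the authors, who trimmed reads with Trimmomatic 0.32, aligned them with STAR 2.5.1a to GRCm38.p5 and counted read pairs per gene. The deposited values are raw read counts per gene, without normalization: 50123 GENCODE M12 genes in 23 libraries. The table's header names featureCounts 1.5.0-p3 and the labels 1.5.1, and strand was not used, so overlapping antisense genes cannot be separated. Reads carry no molecular identifiers, and the floor covers counting error only, whereas the SEs of the fit include the spread between libraries. As the floor, 3 counts were used, which equal 0.0621 to 0.106 CPM of a library's total in the 6 libraries compared.

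Groups, replicate numbers and batches came from the labels (E14.5 batch 3: replicates 1 and 2; batch 4: replicate 3). Deviations from the group means were correlated over 8258 genes with a mean of at least 10 CPM. Same-numbered libraries gave r = 0.48, 0.42 and 0.27, all over 0.1, and others −0.46 to 0.36. By this rule the number was used as a block. The values do not show that the numbers pair libraries. cKO replicate 3 correlated better with control replicate 2 (r = 0.36) than with control replicate 3 (r = 0.27), and cKO replicate 2 also correlated with control replicate 3 (r = 0.28). Values with the block or by same-numbered pair are therefore alternatives only. The study took its E14.5 cKO and control samples from 2 litters on different days, so some libraries share a litter. Which litter a library came from, and whether it holds cells of 1 embryo, is not given in the sources used here, and p-values measure the spread between these libraries.

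Counts were scaled by TMM, 19140 genes passed edgeR's filterByExpr, and all 23 libraries were fitted with 7 group means and 2 batch terms (edgeR glmQLFit and glmQLFTest, two-sided, Benjamini-Hochberg over all genes tested, called at an adjusted p of at most 0.05). The SE is the log2 fold change over the square root of the F statistic. The main edgeR fit alone was first run on simulated counts, which held no batch or replicate difference, and its outcome is not given here. A member was counted as measured with at least 10 counts in 1 of the 6 libraries. Members and lists were chosen with earlier results of these data known. Named are *Rbpj*, the tested Notch receptors, ligands and targets, genes the study names from its RNA-seq of these cells, the list members with an unadjusted p under 0.05 (or else the 2 most abundant), and the 10 genes in each direction with the smallest p that do not overlap and reach 5 CPM, without predicted genes. A further 15 list members, 12 of them because their libraries do not overlap, and *Trp63*, *Epcam*, *Hes5* and *Cd3e* were named after their values were seen. The values of 3 genes are not reported here, though list totals count them. Alternatives were DESeq2, limma-voom (the authors' test), RLE and housekeeping scaling, no or a stricter filter, no batch terms, the replicate block, 6 or 12 libraries and the omission of each library and of replicate 3; 4 more were chosen after seeing the data. The versions used were DESeq2 1.42.0, edgeR 4.0.16 and limma 3.58.1 under R 4.3.3, with tables built in Python 3.11.15.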

Additional observations from a re-analysis of the deposited data

How the results depend on the processing

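The count of 0 called genes held with edgeR under every alternative but the absence of a low-count filter (10 calls, all lower), with limma-voom and when any library was left out; DESeq2 gave 131. The 395 genes with an unadjusted p under 0.05 became 1055 with no filter, 165 of 13438 with the stricter filter, 197 with the replicate block, 208 with 6 libraries, 169, 234 and 206 without replicates 1, 2 or 3 of both groups, and 276 to 396 when 1 library was left out. For the interactions, DESeq2 called 116 (PLET1+ minus PLET1-negative) and 215 (E14.5 minus E12.5), and no filter 6 and 24. The replicate block changed no call. The cause of these shifts was not tested, apart from the smaller numbers of genes or libraries. With 3 libraries a group, each of 100 cells, the SEs of the 97 genes' log2 fold changes were at least 0.24 and had a median of 0.87.

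Median log2 fold changes of gene lists that moved by more than the SD over the 3 pairs were, with limma-voom −1.64 for the Notch receptors list, −0.33 for the Notch receptor processing and modification list, 0.36 for the Notch ligand and receptor trafficking and turnover list and −3.01 for the Skint family list. They were, with the replicate block −1.22 for the Notch receptors list, −0.20 for the Notch receptor processing and modification list and −1.89 for the EGFR ligands and receptors list. They were, with RLE factors −0.13 for the Notch receptor processing and modification list. They were, with housekeeping scaling −0.31 for the Notch receptor processing and modification list. They were, without batch terms −0.057 for the Notch receptor processing and modification list, −0.72 for the mTEC lineage list and −1.1 for the Neuroendocrine and proneural list. They were, in the 6-library fit −0.079 for the Notch receptor processing and modification list, −0.50 for the mTEC lineage list and −1.1 for the Neuroendocrine and proneural list. That fit tested fewer members, 10 of the mTEC list (7 below 0) and 6 of the neuroendocrine list (3 below 0). They were, without replicate 1 of both groups −0.28 for the Notch receptor processing and modification list, −0.011 for the Notch ligand and receptor trafficking and turnover list, −2.66 for the Skint family list and −1.36 for the Neuroendocrine and proneural list. When 1 library was left out they ran from −1.54 to −0.41 for the Notch receptors list, −0.60 to 0.035 for the Notch receptor processing and modification list, −0.33 to 0.53 for the Notch ligand and receptor trafficking and turnover list, −1.68 to −0.67 for the mTEC lineage list, −0.69 to −0.045 for the NF-kB receptors and signalling in mTEC list, −2.54 to −1.46 for the Skint family list, −3.24 to −0.64 for the Neuroendocrine and proneural list and −2.11 to −0.46 for the EGFR ligands and receptors list.

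With edgeR no named gene was called, except *Krt5*, *Pth*, *Ddx3y*, *Rgs4*, *Gstm1* and *Ces1a* without a filter, and DESeq2 called the 8 leading genes given above. Of the 97 genes, 60 kept their direction under all alternatives they were tested in, among them the 19 leading genes, *Rbpj*, *Notch1*, *Notch3*, *Heyl* and *Ly75*. The other 37 changed sign at least once. Their log2 fold changes of the opposite sign were, without replicate 1 of both groups −0.24 for *Notch2*, 0.41 for *Dll4*, −1.03 for *Jag1*, 0.047 for *Hes1*, 0.28 for *Dtx1*, −0.61 for *Maml2*, −0.53 for *Adam10*, 0.022 for *Poglut1*, 0.17 for *Egfr*, −0.21 for *Ywhaz*, −0.13 for *Hprt* and 0.29 for *Hba-a2*. They were, without replicate 2 of both groups −0.48 for *Notch4*, −2.1 for *Dll1*, 0 for *Dll3*, 0.17 for *Nrarp*, −0.21 for *Ccnd1*, −0.19 for *Plet1*, −0.17 for *Krt8*, −0.12 for *Krt18*, −0.0096 for *Pecam1*, −0.017 for *Fcer1g*, 0.17 for *Pth*, −0.052 for *Sox10* and 6.21 for *Ddx3y*. They were, with limma-voom −1.47 for *Dll1*, −0.21 for *Jag1*, −0.012 for *Krt8*, −0.13 for *Maml2*, −0.46 for *Dcn*, 0.56 for *Hba-a2*, 3.23 for *Xist* and 2.29 for *Ddx3y*. They were, with the replicate block −0.75 for *Dll1*, −0.33 for *Jag1*, −0.089 for *Plet1*, −0.053 for *Krt8*, −0.18 for *Maml2*, 0.68 for *Hba-a2*, 0 for *Fcer1g* and 0.71 for *Ddx3y*. They were, without replicate 3 of both groups −0.23 for *Dll1*, −0.12 for *Plet1*, −0.091 for *Krt8*, 0.14 for *Rela*, −0.099 for *Krt18*, −0.0047 for *H2-Ab1*, −0.0026 for *Ccnb1*, 0 for *Fcer1g* and 1.0 for *Xist*. They were, with replicate 1 against 2 and 3 as a covariate −0.49 for *Dll1*, −0.28 for *Jag1*, −0.41 for *Plet1*, −0.038 for *Krt8*, −0.098 for *Maml2*, 0.34 for *Hba-a2*, −0.011 for *Fcer1g* and 0.41 for *Ddx3y*. They were, with limma-voom with replicate block −1.27 for *Dll1*, 0.15 for *Dll4*, −0.003 for *Maml2*, 0.93 for *Hba-a2* and 0.85 for *Ddx3y*. They were, with housekeeping scaling 0.057 for *Dll3*, 0.11 for *Dll4*, −0.31 for *Jag1*, −0.22 for *Maml2*, 0.035 for *Rela*, −0.034 for *Krt18*, −0.015 for *Ywhaz*, −0.046 for *Hprt* and −0.018 for *Fcer1g*. They were, with DESeq2 0.026 for *Dll4* and 0 for *Fcer1g*. They were, with RLE factors 0.026 for *Dll4*. They were, with no filter 0.0059 for *Dll4*. They were, with the stricter filter 0.007 for *Dll4*. They were, without batch terms 0.072 for *Dll4*, −0.0018 for *Krt18*, 0.18 for *Alas2*, 0 for *Fcer1g* and 0.30 for *Ddx3y*. They were, in the 6-library fit 0.025 for *Dll4*, −0.023 for *Jag1* and −0.016 for *Maml2*. They were, in the 12-library fit 0.030 for *Dll4*. When 1 library was left out, the values of those that changed sign ran from −0.73 to 1.5 for *Notch2*, −0.25 to 4.56 for *Notch4*, −2.46 to 0.71 for *Dll1*, −4.84 to 4.69 for *Dll3*, −0.52 to 0.49 for *Dll4*, −1.27 to 0.55 for *Jag1*, −0.75 to 0.0017 for *Hes1*, −0.79 to 3.36 for *Hes7*, −1.32 to 1.37 for *Nrarp*, −0.045 to 0.62 for *Ccnd1*, −1.99 to 0.15 for *Cdkn1a*, −0.34 to 0.38 for *Plet1*, −0.31 to 0.36 for *Krt8*, −0.85 to 0.52 for *Maml2*, −0.88 to 1.2 for *Adam10*, −0.78 to 0.063 for *Poglut1*, −0.082 to 0.45 for *Mib1*, −0.049 to 0.84 for *Fbxw7*, −0.92 to 0.37 for *Rela*, −0.12 to 0.20 for *Krt18*, −1.15 to 0.34 for *Ccn1*, −0.084 to 0.57 for *H2-Ab1*, −0.61 to 0.0086 for *Egfr*, −0.05 to 0.42 for *Ccnb1*, −0.19 to 0.37 for *Ywhaz*, −0.39 to 0.49 for *Hprt*, −0.81 to 0.019 for *Il2ra*, −0.098 to 1.4 for *Pecam1*, −2.87 to 0.059 for *Alas2*, −1.59 to 0.87 for *Hba-a2*, −0.19 to 0.20 for *Fcer1g*, −2.2 to 0.61 for *Xist* and −8.62 to 5.51 for *Ddx3y*.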
